A study of Mus musculus with 18 samples.

Results

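The 32 genes described here encode chaperones of the endoplasmic reticulum (ER) and parts of the unfolded protein response. They were chosen by gene symbol from 22019 genes with a deposited value. All 32 were among the 16021 genes that were tested. Messenger RNA of NIH 3T3 mouse fibroblasts was sequenced, and each gene has 1 normalized signal per library. The cells were stable NIH 3T3 TetON lines made by retroviral transduction and puromycin selection, kept for 48 hr with 1 µg/ml doxycycline on gels of 1 kPa (soft) or 308 kPa (stiff). SUN1L cells expressed the lumenal domain of SUN1 with a signal sequence and an ER retrieval sequence, a dominant-negative protein for the LINC complex that links the nucleus to the cytoskeleton. KDEL cells expressed a green fluorescent protein with the same 2 sequences, and this line alone was also enriched by fluorescence sorting, so sorting and construct cannot be told apart.

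Libraries carry the serial numbers of the laboratory. KDEL cells on 1 kPa gave libraries 4, 16 and 28. SUN1L cells on 1 kPa gave libraries 3, 15 and 27. KDEL cells on 308 kPa gave libraries 8, 20 and 32. SUN1L cells on 308 kPa gave libraries 7, 19 and 31. KDEL cells on 308 kPa with 25 µM Y27, which lowers myosin contractility, gave libraries 12, 24 and 36, and those with 10 µM blebbistatin, an inhibitor of myosin II, gave libraries 10 and 22. Library 34 has labels that contradict each other and was in no comparison. All groups carried doxycycline, and both constructs send a protein into the ER lumen, so the comparison of SUN1L with KDEL cells asks whether ER load differs between the proteins. SUN1L also disrupts the LINC complex, so ER load and LINC disruption cannot be told apart in this comparison. Cells known to lack an ER-directed protein were in no comparison. A label of library 34 names an empty vector, and its values are described at the end.

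The ER folds secreted and membrane proteins with chaperones such as BiP (Hspa5) and GRP94 (Hsp90b1), with the lectin chaperones of the calnexin cycle and with protein disulfide isomerases. When unfolded proteins build up, the sensors IRE1, PERK and ATF6 start the unfolded protein response: IRE1 splices Xbp1 mRNA, ATF6 is cleaved to a transcription factor, and PERK slows translation while Atf4 mRNA is translated more. XBP1 and ATF6 raise chaperones and genes of ER-associated degradation, which returns misfolded proteins to the cytosol. ATF4 raises Ddit3, Trib3, Asns and other genes, and it does so also when amino acids run short, without the ER, as the integrated stress response.

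Known response elements of both arms were searched in the promoters of the members. The RefSeq table of GRCm38.p6 held a promoter of 28 of the 32 members, from 250 bases before to 50 after the transcription start. The ER stress response element (ERSE), searched on both strands as CCAAT followed by 9 bases of any kind and then CCACG, was in 9 of these 28 members and in 0.137% of the 27025 genes with a promoter. The form called ERSE-II, ATTGG and CCACG with 1 base between them, was in Dnajb11 and Herpud1, and in 0.0444% of all genes. The amino acid response element, TGATGNAA, was in Herpud1, Atf3, Trib3, Asns and Chac1, and in 4.51% of all genes. Promoters of Hspa5, Calr, Pdia6 and Creld2 are shown for the chaperone arm, those of Atf3, Asns and Chac1 for the ATF4 arm, and that of Herpud1 since it held both kinds. Capitals mark the letters of the motifs on either strand, the sequences run 5′ to 3′ along the strand of the gene, and all end before the transcription start.
Hspa5, chr2:34772000-34772068, plus strand: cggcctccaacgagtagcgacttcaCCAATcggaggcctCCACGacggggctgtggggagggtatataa
Calr, chr8:84847050-84847118, minus strand: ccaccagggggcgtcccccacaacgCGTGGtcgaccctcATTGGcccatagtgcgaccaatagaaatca
Pdia6, chr12:17266466-17266534, plus strand: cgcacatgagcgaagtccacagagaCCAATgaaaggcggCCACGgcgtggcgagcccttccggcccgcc
Creld2, chr15:88819495-88819563, plus strand: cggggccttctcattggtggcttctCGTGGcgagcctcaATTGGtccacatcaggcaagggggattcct
Herpud1, chr8:94386292-94386412, plus strand: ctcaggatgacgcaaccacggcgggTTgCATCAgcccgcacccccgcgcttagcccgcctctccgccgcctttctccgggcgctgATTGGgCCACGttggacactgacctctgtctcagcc
Atf3, chr1:191183411-191183468, minus strand: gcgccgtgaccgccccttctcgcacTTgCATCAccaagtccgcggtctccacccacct
Asns, chr6:7693210-7693257, minus strand: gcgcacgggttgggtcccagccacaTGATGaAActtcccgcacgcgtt
Chac1, chr2:119351024-119351081, plus strand: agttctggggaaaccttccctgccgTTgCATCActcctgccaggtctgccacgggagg
The 9 members with an ERSE were Hspa5, Hsp90b1, Dnajc3, Creld2, Calr, Canx, Pdia6, Syvn1 and Derl3, and Hsp90b1 had 2 copies. A match describes the letters and was not tested as a binding site.

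Summed signal per library was 29583296 to 34880352, and the spacing of low values put the depth at an estimated 12700000 to 19500000 read pairs. Sun1 signal, which includes the reads of the construct, was 38450 to 82620 in the 6 SUN1L libraries and 2785 to 3799 in the others. It fell with the serial number at both rigidities: 82620, 63550 and 48170 in libraries 3, 15 and 27, and 73360, 54070 and 38450 in libraries 7, 19 and 31. The relation of this signal to the members was not tested. By summed signal the labelled cell type held: fibroblast markers such as Col1a1 and Fn1 summed to 550800 to 891300. The 5 epithelial markers summed to 98.88 to 315, mostly Cdh1 (88 to 311). Muscle markers summed to 183.3 to 467, mostly Des (181 to 465). Leukocyte markers summed to 190.9 to 663.2 and endothelial markers to 34.03 to 286. Krt18 and Myod1 were at the lowest value in all 18 libraries. Libraries 3, 7 and 8 stood apart from the rest. They belong to 3 different groups, and their signal of the proliferation marker Mki67 was 821.7 to 1320 against 8365 to 15960 in the other 15. On 1 kPa this sets 1 SUN1L library apart and no KDEL library, while on 308 kPa it sets 1 library of each construct apart. Results that rest on them are given with and without them. The serial numbers form 3 runs (3 to 12, 15 to 24 and 27 to 36) with 1 library of each group, except that the last lacks a blebbistatin library with a clear label. Libraries 3, 7 and 8 are all in run 1, and values within runs are given for some classes and members.

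A gene was called when its limma p, adjusted by Benjamini-Hochberg over all tested genes, was under 0.05 and its groups differed at least 2-fold. Over both rigidities, 0 of the 32 members were called between SUN1L and KDEL cells, against 29 genes or 0.181% of all tested genes. The smallest adjusted p of a member was 0.643. The median difference of the members was 0.01 on the log2 scale, beside -0.02 over all tested genes, with 17 members higher and 15 lower in SUN1L cells. At an unadjusted limma p under 0.05, which 6.80% of all tested genes passed, Atf3 was higher and Xbp1 was lower, 2 of 32. On 1 kPa alone 0 members were called, beside 0.0874% of all genes, and 1 of 32 passed the unadjusted p, Atf3 (higher), beside 4.54%. On 308 kPa alone 0 were called, beside 0.0624%, and 1 passed the unadjusted p, Xbp1 (lower), beside 2.53%. Members made up 1.14% to 1.26% of the summed signal in KDEL cells on 1 kPa and 1.11% to 1.38% in SUN1L cells. On 308 kPa the shares were 1.16% to 1.25% and 1.14% to 1.44%, so the groups overlapped at both rigidities.

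**Figure D1:**
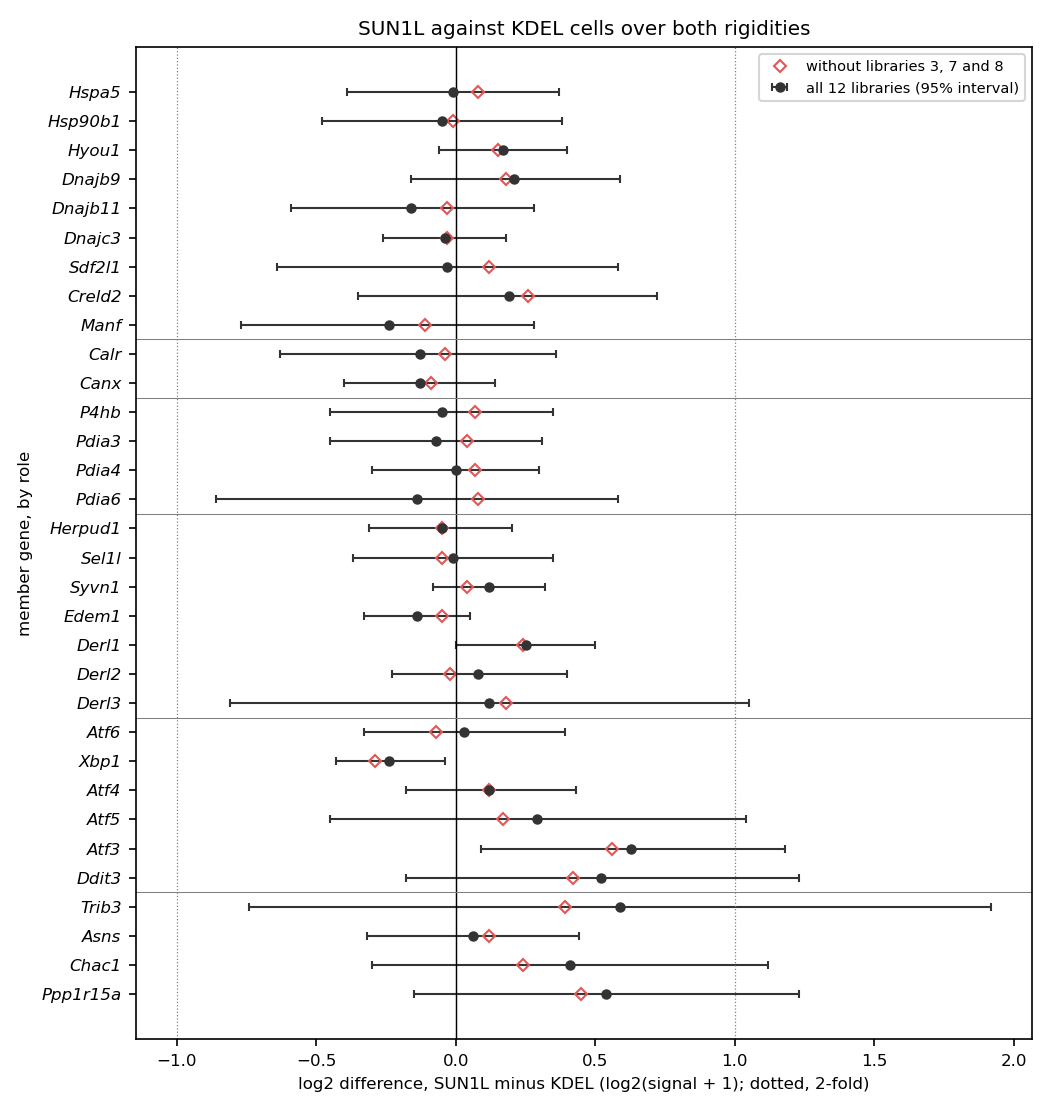
Log2 difference of SUN1L minus KDEL cells over both rigidities for each of the 32 members, by role; points are limma estimates with 95% intervals (6 against 6 libraries), open diamonds the estimates without libraries 3, 7 and 8, and dotted lines mark 2-fold. The points lie between -0.24 for Xbp1 and Manf and 0.63 for Atf3, and no point reaches 2-fold.

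No lumenal chaperone separated the constructs at either rigidity. Hspa5 (BiP) binds unfolded chains and holds the sensors inactive. On 1 kPa its signal was 43900, 45740 and 48530 in KDEL cells and 38610, 39200 and 57840 in SUN1L cells. The values on 308 kPa were 45000, 38410 and 48280 in KDEL cells and 40610, 35310 and 61750 in SUN1L cells. The SUN1L libraries held both the highest and the lowest values at each rigidity, and the groups overlapped. Over both rigidities the log2 difference was -0.01 with a 95% interval from -0.39 to 0.37 (limma, adjusted p = 0.996), and 0.08 without libraries 3, 7 and 8. A difference of 2-fold in either direction lies outside this interval.

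Hsp90b1 (GRP94) is the HSP90 of the ER. Its signal on 1 kPa was 56410, 63350 and 67960 in KDEL cells and 43520, 50470 and 70340 in SUN1L cells. On the stiff gel it was 43580, 57770 and 68970 in KDEL cells and 51890, 51300 and 82100 in SUN1L cells. The groups overlapped at both rigidities, with a log2 difference of -0.05 and an interval from -0.48 to 0.38. Of the other lumenal members, Hyou1 (GRP170, which exchanges nucleotides on BiP) differed by 0.17, and the BiP cochaperones Dnajb9 (ERdj4), Dnajb11 (ERdj3) and Dnajc3 (p58IPK) differed by 0.21, -0.16 and -0.04. Sdf2l1, a partner of ERdj3, differed by -0.03, Creld2, an ER stress-inducible lumenal protein, by 0.19, and Manf, which binds BiP, by -0.24. All 9 had 95% intervals that include 0. Dnajb9 was higher in SUN1L cells in 6 of 6 pairs of libraries of the same run and rigidity, a pattern shared by 4.06% of all tested genes, by 0.01 to 0.35.

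The lectin chaperones Calr (calreticulin) and Canx (calnexin) hold glycoproteins during folding. Calr signal on 1 kPa was 40330, 46420 and 45480 in KDEL cells and 26210, 38430 and 49930 in SUN1L cells. The values on 308 kPa were 26780, 48250 and 48420 in KDEL cells and 28760, 41180 and 51830 in SUN1L cells. The lowest value of 3 of these groups came from libraries 3, 8 and 7, and the groups overlapped. The log2 difference was -0.13 (interval -0.63 to 0.36) with all libraries and -0.04 without those 3. Canx was lower in SUN1L cells in 6 of 6 pairs within runs, as were 7.27% of all tested genes, with log2 differences of -0.41 to -0.02, and its limma interval ran from -0.40 to 0.14. The disulfide isomerases, which form and shuffle disulfide bonds, were as close: P4hb differed by -0.05, Pdia3 by -0.07, Pdia4 by 0.00 and Pdia6 by -0.14. Pdia6 had the widest interval of these 4, from -0.86 to 0.58, and its difference without libraries 3, 7 and 8 was 0.08.

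The direction of the chaperones and isomerases differed between runs of libraries. In run 2, 1 of these 15 members was higher in SUN1L than in KDEL cells on 1 kPa and 1 of 15 on 308 kPa, with medians of -0.17 and -0.15. In run 3 it was 12 of 15 on 1 kPa and 14 of 15 on 308 kPa, with a median of 0.20 at each rigidity. In run 1, which holds libraries 3, 7 and 8, it was 2 of 15 (median -0.37) and 7 of 15 (median -0.01). The median over all tested genes was between -0.01 and 0.00 in each of the 6 pairs. Of all tested genes, 42.7% to 48.1% were higher in SUN1L cells, and each pair is 1 library against 1. Hspa5 itself differed by -0.19 and -0.15 in run 1, by -0.22 and -0.12 in run 2, and by 0.25 and 0.36 in run 3. Of the 10 factors and integrated stress response targets, 10 were higher in SUN1L cells on 1 kPa in run 1 but 2 on 308 kPa. In run 2 it was 9 and 8 of 10, and in run 3 it was 8 and 6 of 10.

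**Figure D2:**
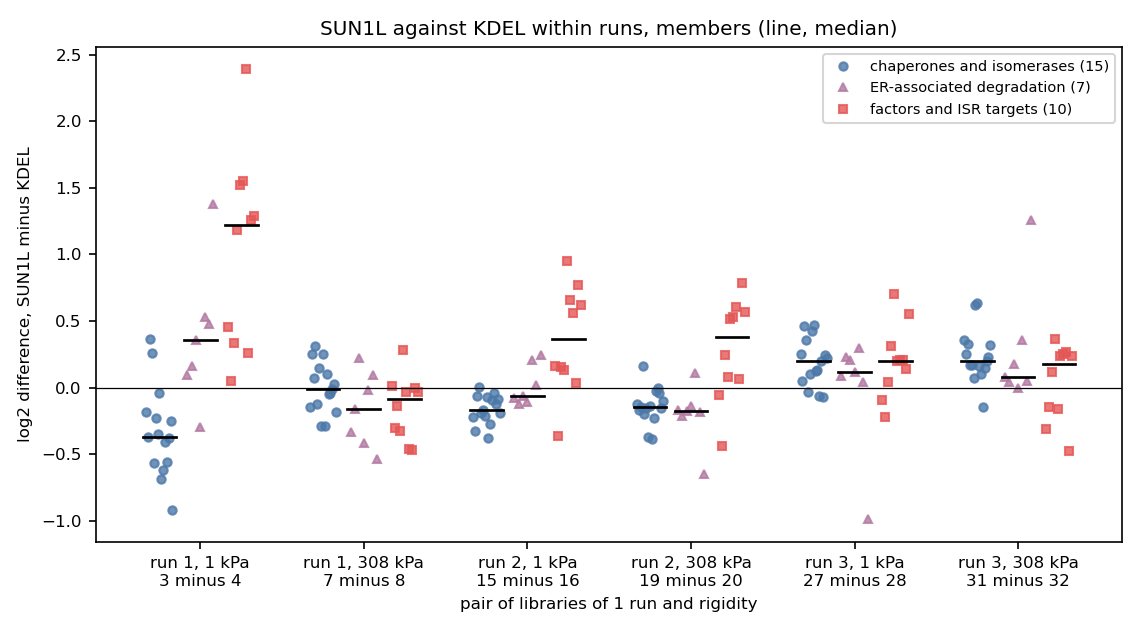
Log2 difference of SUN1L minus KDEL for each member within pairs of libraries of 1 run and rigidity, by class (circles, 15 chaperones and isomerases; triangles, 7 degradation genes; squares, 10 factors and integrated stress response targets), with a line at each median. The circles lie mostly below 0 in run 2 and mostly above 0 in run 3.

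Among the 7 members of ER-associated degradation, 4 were higher and 3 lower in SUN1L cells, between -0.14 and 0.25. Derl1, a membrane protein of the retrotranslocation channel, had signals of 4900, 4867 and 4819 in KDEL cells on 1 kPa and 7082, 5609 and 5917 in SUN1L cells. On the stiff gel they were 6736, 4861 and 4471 in KDEL cells and 6653, 5256 and 5738 in SUN1L cells. All 3 SUN1L libraries exceeded all KDEL libraries on 1 kPa, while on 308 kPa the groups overlapped through library 8. The difference over both rigidities was 0.25 (interval 0.00 to 0.50, limma adjusted p = 0.735) and 0.24 without libraries 3, 7 and 8 (adjusted p = 0.392). Derl2, its paralog, differed by 0.08, and Herpud1, an ER membrane protein that helps assemble the degradation complex, by -0.05. Syvn1 (HRD1), the ubiquitin ligase of that complex, differed by 0.12, its partner Sel1l by -0.01, and Edem1, which delivers glycoproteins to degradation, by -0.14. Derl3 was close to the lowest value, 1.022 to 12.13 in all libraries, which is a few read pairs or none, so no difference was detectable at this depth.

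Xbp1 had a lower estimate in SUN1L cells over both rigidities but was not called. Its unadjusted limma p was under 0.05, as for 6.80% of all tested genes. The gene encodes the transcription factor made after splicing by IRE1, and it is itself a target of the response. The signal on 1 kPa was 2808, 2959 and 2744 in KDEL cells and 2898, 2303 and 2356 in SUN1L cells. On the stiff gel it was 3185, 3016 and 2521 in KDEL cells and 2581, 2229 and 2275 in SUN1L cells. The SUN1L libraries 15, 27, 19 and 31 lay below every KDEL library, while library 3 lay within the KDEL values on 1 kPa and library 7 above 1 KDEL library on 308 kPa. The log2 difference was -0.24 ± 0.09 (SE; interval -0.43 to -0.04), and limma's adjusted p was 0.643. It was -0.29 without libraries 3, 7 and 8 (adjusted p = 0.361), and -0.18 on 1 kPa and -0.30 on 308 kPa with all libraries. Within runs, Xbp1 was lower in 5 of 6 pairs, as were Dnajb11, Pdia3 and Edem1, while 9 members were higher in 5 of 6. The share of all tested genes with such counts was not computed. These signals count all transcripts of the gene, and the spliced form was not analysed here. The sensors Ern1 (IRE1) and Eif2ak3 (PERK) differed by 0.23 and -0.14 (adjusted p = 0.918 and 0.911), and Atf6 by 0.03.

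Of the factors downstream of PERK, Atf3 was the 1 that passed an unadjusted limma p under 0.05 on 1 kPa, and none passed the adjusted test. Atf3, a stress-induced transcription factor, had signals of 63.78, 74.13 and 90.18 in KDEL cells and 185, 144.5 and 147.1 in SUN1L cells on 1 kPa. The values on 308 kPa were 172.6, 75.19 and 132.8 in KDEL cells and 209.7, 107.7 and 118.7 in SUN1L cells. On 1 kPa the groups did not overlap, and on 308 kPa they did. The log2 difference was 1.06 ± 0.35 (SE) on 1 kPa (interval 0.29 to 1.83, limma adjusted p = 0.93) and 0.21 ± 0.35 on 308 kPa (adjusted p = 1). Without libraries 3, 7 and 8 it was 0.94 on 1 kPa. The difference between these 2 effects was -0.85 with an interval from -1.94 to 0.24, so the effects of the construct at the 2 rigidities were not shown to differ.

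Ddit3 (CHOP) is a factor that can promote cell death when the response lasts. On 1 kPa its signal was 976.9, 869.9 and 1183 in KDEL cells and 2867, 1371 and 1358 in SUN1L cells. On 308 kPa it was 2824, 821.1 and 1524 in KDEL cells and 2755, 1187 and 1797 in SUN1L cells. The groups did not overlap on 1 kPa, and on 308 kPa libraries 8 and 7 held the highest value of their groups. The difference on 1 kPa was 0.80 (interval -0.20 to 1.80), and 0.45 without libraries 3, 7 and 8. Atf4 itself, whose regulation is mostly by translation, had 11930, 10350 and 11550 in KDEL cells and 15050, 11540 and 11870 in SUN1L cells on 1 kPa. Its values on 308 kPa were 15790, 9588 and 13340 in KDEL cells and 14310, 11370 and 14440 in SUN1L cells. These groups overlapped, with a difference of 0.12 over both rigidities (interval -0.18 to 0.43). Atf5, a related factor, differed by 0.29 with all libraries and 0.17 without libraries 3, 7 and 8.

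The 4 targets of the integrated stress response were all higher in SUN1L cells over both rigidities, and none passed an unadjusted p under 0.05. Their median difference was 0.77 on 1 kPa and 0.12 on 308 kPa, where Asns was lower (-0.05). Without libraries 3, 7 and 8 these medians were 0.34 and 0.28. Asns, which makes asparagine, had 7378, 6105 and 7149 in KDEL cells and 8825, 6248 and 8244 in SUN1L cells on 1 kPa. On 308 kPa it had 12690, 6465 and 8030 in KDEL cells and 9179, 6766 and 9641 in SUN1L cells. The groups overlapped at both rigidities (difference 0.06, interval -0.32 to 0.44). Trib3, a pseudokinase that dampens the response, differed by 0.59 (interval -0.74 to 1.92). Chac1, which breaks down glutathione, differed by 0.41, and Ppp1r15a (GADD34), which restores translation, by 0.54. Without libraries 3, 7 and 8 the last 3 differences were 0.39, 0.24 and 0.45.

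**Figure D3:**
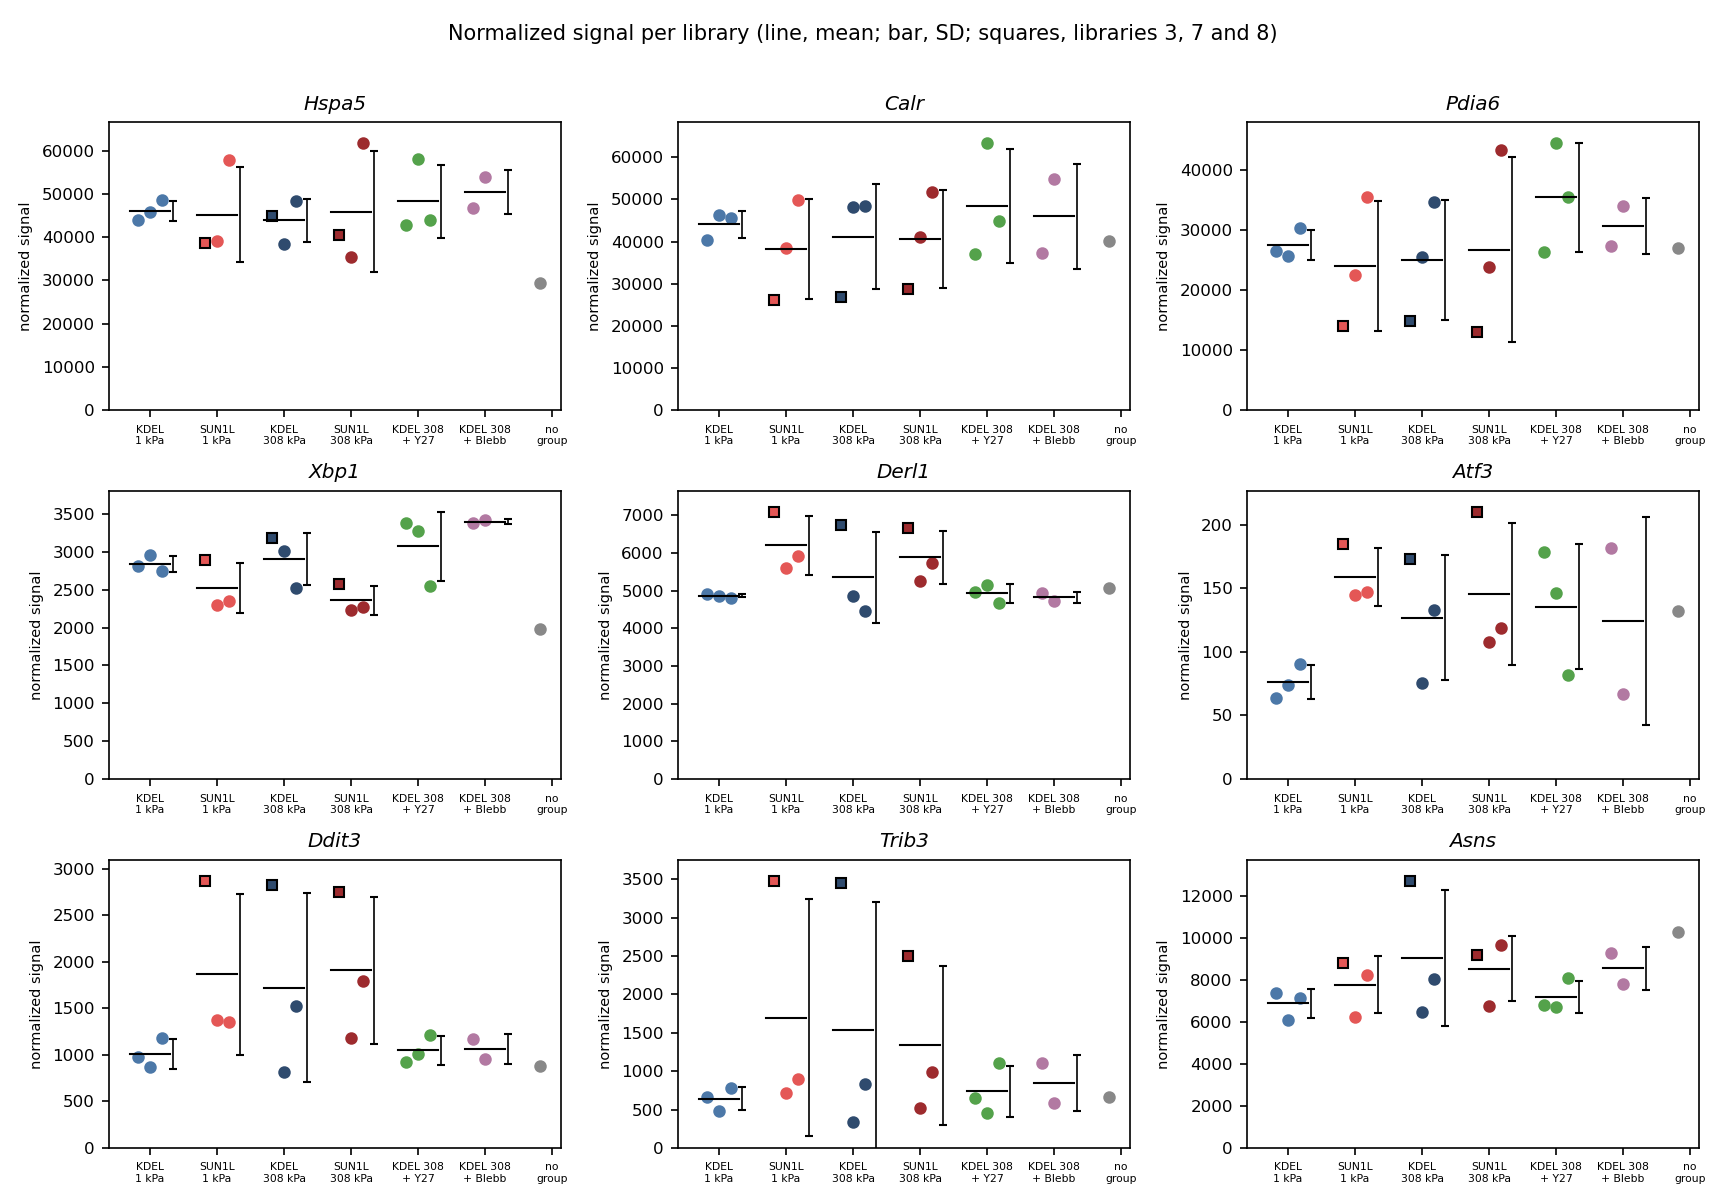
Normalized signal of 9 members in each library by group, on a linear axis from 0; lines are means, bars SD (cut at 0), and squares mark libraries 3, 7 and 8. For Ddit3 and Trib3 the squares lie far above the circles, and for Calr and Pdia6 they are the lowest points of their groups.

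On 1 kPa, 4 members were higher in all 3 SUN1L libraries than in any KDEL library (Derl1, Atf3, Ddit3 and Chac1) and 1 was lower (Canx), 5 of 32 beside 14.5% of all tested genes. On 308 kPa, 0 of 32 were separated, beside 4.29%. With the run as a block, 6 members were higher and 1 lower over both rigidities at an unadjusted p under 0.05, beside 7.02% and 8.67% of all genes. The 6 were Dnajb9, Derl1, Atf3, Ddit3, Chac1 and Ppp1r15a, the 1 was Xbp1, and the smallest adjusted p was 0.137. On 1 kPa the block gave 7 higher and 0 lower, beside 6.34% and 7.76% of all genes: Derl1, Atf5, Atf3, Ddit3, Trib3, Chac1 and Ppp1r15a, with a smallest adjusted p of 0.22. Without libraries 3, 7 and 8 the count on 1 kPa was 2 higher (Derl1 and Atf3) and 1 lower (Xbp1). The shares of all genes in that fit were 2.93% and 1.99%. With the block or without these libraries, 0 members were called.

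Libraries 3, 7 and 8 held the extreme values of many members. They were the 3 highest of 18 libraries for 8 members, beside 8.80% of all tested genes. These were Derl1, Derl2, Atf6, Atf5, Ddit3, Trib3, Chac1 and Ppp1r15a. They were the 3 lowest for 6 members, Dnajb11, Manf, Calr, P4hb, Pdia3 and Pdia6, beside 13.0% of all genes. Trib3 signal was 3475, 2505 and 3448 in libraries 3, 7 and 8 and 342 to 1107 in the other 15. By class, the mean deviation from the median of the 18 libraries was -0.36 to -0.35 for the 15 chaperones and isomerases in these libraries and -0.27 to 0.40 in the others. For the 4 targets of the integrated stress response it was 1.02 to 1.26 against -0.56 to 0.37, and for the 6 sensors and factors 0.57 to 0.66 against -0.31 to 0.26. The 10 dividing-cell genes deviated by -3.33 to -2.60 in the same libraries, against -0.35 to 0.40, and their part in the members' values was not tested. By promoter motif, these libraries were lowest for 2 of the 9 members with an ERSE and highest for 0, and highest for 2 of the 5 with an amino acid response element and lowest for 0.

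**Figure D4:**
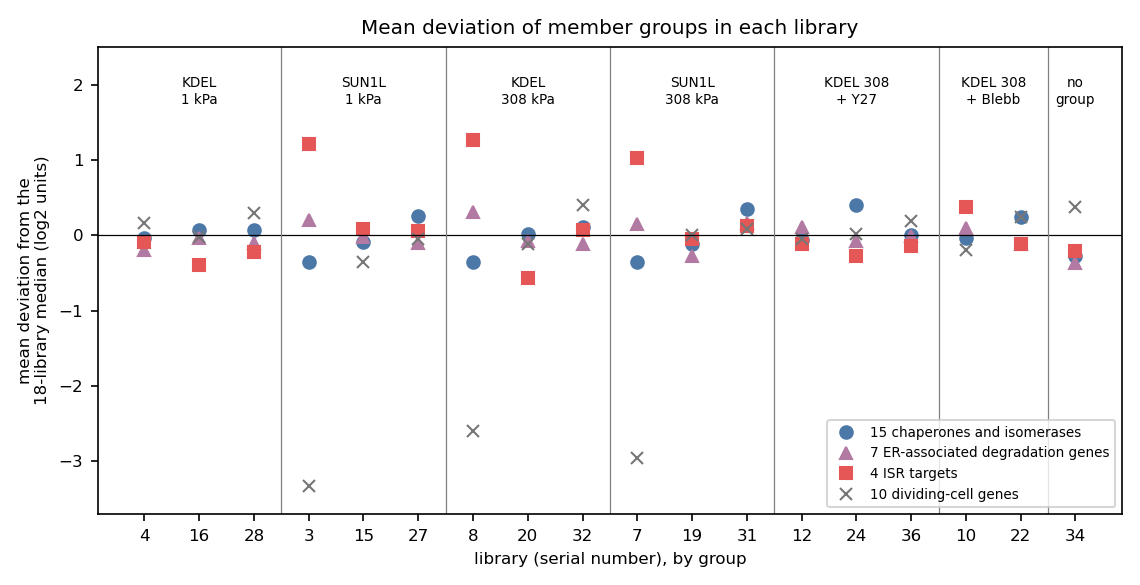
Mean deviation of log2(signal + 1) from the median of the 18 libraries, for 15 chaperones and isomerases (circles), 7 degradation genes (triangles), 4 integrated stress response targets (squares) and 10 dividing-cell genes (crosses), per library and group. In libraries 3, 7 and 8 the squares lie above 1 while the circles lie at -0.36 to -0.35 and the crosses below -2.

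**Figure D5:**
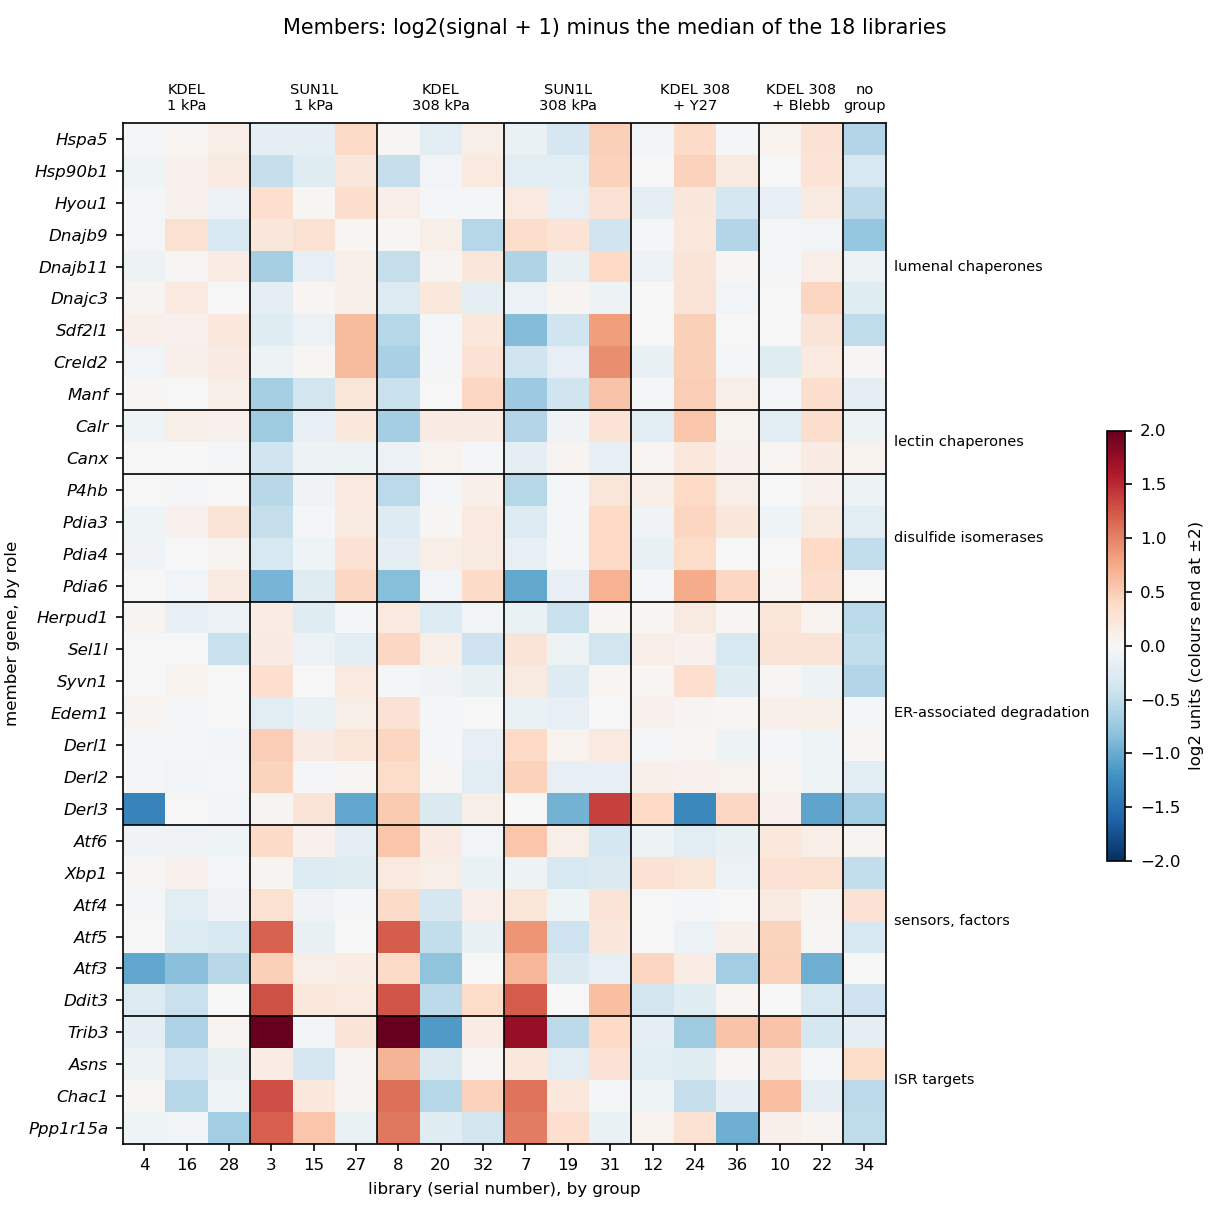
Log2(signal + 1) of each member minus its median over the 18 libraries, by role and group; red is above and blue below the median, and colours end at 2 log2 units. Red cells at libraries 3, 8 and 7 among the factors and targets lie below blue cells among the isomerases, Calr and Manf.

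Rigidity gave no called member. In KDEL cells the members had a median difference of 0.04 between 308 kPa and 1 kPa, beside -0.01 over all genes, and 0 were called, as for all tested genes (0.00%). At an unadjusted p under 0.05 the count was 0 of 32, beside 1.37%, and with the run as a block it was 3 higher (Atf3, Ddit3 and Asns) and 0 lower, beside 2.40% and 2.97% of all genes, with a smallest adjusted p of 0.781. Atf3 differed by 0.67 (interval -0.11 to 1.44), and by 0.40 without libraries 3, 7 and 8. Leaving out these libraries took Ddit3 from 0.60 to 0.16 and Asns from 0.34 to 0.07. Between these groups Atf6 was higher and Syvn1 lower in every library, 2 of 32 beside 4.78% of all genes. In SUN1L cells the median was -0.01, 0 were called (0.00% of all genes), 0 of 32 passed the unadjusted p (1.93%), and 0 were separated (4.77%). For the interaction of construct and rigidity, 0 were called (0.00%) and 0 passed the unadjusted p (0.905%). By role, the interaction was positive for 14 of the 15 chaperones and isomerases and negative for all 17 others, beside 49.3% of all genes positive and 50.7% negative. Without libraries 3, 7 and 8 this split was lost: 7 of the 15 were positive and 11 of the 17 negative, beside 45.9% and 54.1% of all genes. The median over the 32 was -0.10 with all libraries and -0.01 without those 3.

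Myosin inhibition gave no called member. The 2 inhibitors share the untreated KDEL libraries 8, 20 and 32, so their values are not independent. With Y27, Hspa5 signal was 42900, 58050 and 43900 and Calr signal 37000, 63330 and 44910. Library 24 held the highest value of both, and both groups overlapped the untreated one. The median difference of the members was 0.06, and 0 were called (0.00% of all genes). Atf6 was the only member at an unadjusted p under 0.05, beside 5.80% of all genes, with 1898, 1737 and 1837 with Y27 against 2976, 2282 and 1969 without. Its groups did not overlap, and its difference was -0.38 with all libraries (limma adjusted p = 0.827) and -0.22 without library 8. P4hb, with 24340, 29610 and 24300 against 15400, 21750 and 24000, was the other member whose groups did not overlap, 2 of 32 beside 8.57%. Its difference was 0.37 and, without library 8, 0.18.

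With blebbistatin, Hspa5 signal was 46840 and 54020, and the median difference of the members was 0.08. The count called was 0 (0.00% of all genes), and 0 passed the unadjusted p (3.04%). Xbp1, with 3374 and 3425, lay above the untreated libraries, 1 of 32 beside 13.0% of all genes, and its difference was 0.23 (interval -0.14 to 0.61). With the run as a block 1 member, Dnajc3, was higher at an unadjusted p under 0.05, beside 2.08% of all genes, and without library 8 there were 2, Herpud1 (0.32) and Atf5 (0.55), beside 1.74%.

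Other genes of the ER were taken from lists fixed with the members. The KDEL receptors, which return proteins with the retrieval sequence of both constructs to the ER, differed between SUN1L and KDEL cells by -0.04 (Kdelr1), -0.19 (Kdelr2) and 0.06 (Kdelr3), and 0 of 3 passed an unadjusted p under 0.05. Of 23 other folding factors 0 were higher and 1 lower at that p, the membrane thioredoxin Tmx1 (-0.32, adjusted p = 0.638). Of 16 other degradation genes 1 was higher, the ubiquitin ligase Rnf5 (0.35, adjusted p = 0.555). Of 29 other ATF4 targets, 25 were higher on 1 kPa (median 0.23) and 8 on 308 kPa (median -0.04). The share of all genes higher was not computed. None of these targets, none of 14 genes of the translocon and signal peptidase and none of 10 other sensors and activators passed an unadjusted p under 0.05. Among 11 cytosolic and mitochondrial heat shock genes 1 did, Hspa1a (0.74, adjusted p = 0.565), the inducible HSP70, whose reads may be shared with its near-identical neighbour Hspa1b. With Y27, 7 of the 23 folding factors were higher at an unadjusted p under 0.05 and 0 lower, beside 3.49% and 2.31% of all genes. Without library 8 the count higher was 2, beside 3.52% of all genes, and with the run as a block it was 5, beside 4.92%. The 7 were named after their values were seen: Serpinh1 (0.60), Fkbp10 (0.58), Txndc5 (0.45), Erp29 (0.44), Ppib (0.34), Fkbp9 (0.30) and Erp44 (0.21), of which Serpinh1, Fkbp10 and Ppib are known to help fold collagen. Their smallest adjusted p was 0.793. At the same unadjusted p, 1 of 3 KDEL receptors (Kdelr2, 0.33) and 2 of 16 degradation genes were also higher with Y27. So was 1 of 14 genes of the translocon and signal peptidase, and no gene of these lists was lower.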

How the data were processed

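Per the labels and the methods, paired-end reads of polyadenylated RNA were checked with FastQC, aligned with TopHat 2.0 to mm9, handled with SAMtools, and filtered and quantified in AvadisNGS by the authors, who deposited 1 normalized signal per gene and library (trimmed mean of M-values, lowest value 1). The positions that the table gives for genes are those of GRCm38. The signal is not in whole reads, so no count test was used.

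The members and gene lists were chosen with earlier results of these data known. Log2(signal + 1) was tested two-sided in limma 3.58.1 (R 4.3.3), with a trended prior and a mean for each group, over 12 libraries for constructs and rigidities and 8 for inhibitors. The 16021 genes with a signal over 1 in 3 or more of 18 libraries were tested, with Benjamini-Hochberg adjustment over all of them. An exact permutation test of 3 libraries against 3 cannot go below 0.1. Per the methods, the libraries of a group are biological replicates.

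Libraries of the same run deviated together (correlation of deviations from group means 0.104 to 0.673 over 25 pairs, each above 0.1), so the run served as a block in an alternative fit; no source says what a run is. Differences within runs and the promoter motifs were added after the data were seen. Other alternatives were the filter, the pseudocount, quantile normalization, all libraries in 1 fit, no trend, and libraries left out. Every library's value was given for members with an unadjusted p under 0.05 between constructs and for Hspa5, Hsp90b1, Calr, Xbp1, Atf4, Ddit3 and Asns; other members shown so were chosen after their values were seen. Outside the members, Sun1, the KDEL receptors, Ern1, Eif2ak3 and up to 3 genes per list at an unadjusted p under 0.05, alike in direction at both rigidities, were named. A gene of the other degradation list that met this rule is not reported here.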

Additional observations from a re-analysis of the deposited data

How the results depend on the processing

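No alternative gave a called member in any of the 8 comparisons, and the median difference of the members moved by less than the spread between replicates under each. Counts of members at an unadjusted p under 0.05 moved, and so did the shares of all tested genes, given in brackets where computed. Between SUN1L and KDEL cells over both rigidities, members higher were 2 with all libraries in 1 fit. They were 6 with the replicate block by run (7.02%, beside 3.77% in the main fit) and 2 without libraries 3, 7 and 8 (4.15%). Members lower were 0 after quantile normalization. On 1 kPa, members higher were 2 with all libraries in 1 fit, 7 with the block (6.34%) and 2 without libraries 3, 7 and 8 (2.93%). The last fit also gave 1 lower (1.99%). On 308 kPa, members lower were 0 after quantile normalization and 0 without the trend, and 1 was higher without libraries 3, 7 and 8 (2.11%). For rigidity in KDEL cells, the block gave 3 higher (2.4%). For Y27, members lower were 0 with all libraries in 1 fit, 0 without the trend and 0 without library 8 (3.48%). Library 8 is the only 1 of the 3 libraries in that fit. For blebbistatin, members higher were 1 with the block (2.08%) and 2 without library 8 (1.74%). The cause was not tested.

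With 1 library left out in turn, members higher and lower ranged from 0 to 4 and from 0 to 2 for SUN1L over both rigidities (4 higher without library 8, 0 without library 3), from 1 to 3 higher on 1 kPa, and from 0 to 1 in either direction on 308 kPa. They ranged from 0 to 4 higher (without library 20) and 0 to 1 lower for rigidity in KDEL cells, from 0 to 1 lower for rigidity in SUN1L cells and for the interaction, from 0 to 2 in either direction for Y27 (without libraries 32 and 20), and from 0 to 2 higher (without library 8) and 0 to 1 lower for blebbistatin. The share of all genes was not computed for these fits, so their counts cannot be set beside it. The Atf3 difference on 1 kPa stayed between 0.94 and 1.19, the Xbp1 difference over both rigidities between -0.29 and -0.20. Over all settings, 15 of 32 members changed sign at least once in the comparison of constructs over both rigidities. The smallest adjusted p of a member in any of these 8 comparisons and settings was 0.137. Members with a few read pairs, such as Derl3, are limited by depth.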

Other observations

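Library 34 was in no comparison: its labels name an empty vector with Y27 in one field and blebbistatin in another, and the column used for it is numbered 35. It had the lowest value of the 18 libraries for 9 of the 32 members, Hspa5, Hyou1, Dnajb9, Pdia4, Herpud1, Sel1l, Syvn1, Derl2 and Xbp1, and the highest for 0, beside 7.21% and 8.18% of all tested genes. Its Hspa5 signal was 29500, against 35310 to 61750 in the other 17, and its Xbp1 signal was 1978, against 2229 to 3425. Its Sun1 signal was 3656 and its Mki67 signal 12630, both within the range of the libraries without SUN1L and without the low proliferation marker. Members made up 1.00% of its summed signal, below the 1.11% to 1.5% of the other libraries. Asns signal was 10270, exceeded only by library 8, and Atf4 signal 14830, exceeded by libraries 3 and 8.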
